A study of Mus musculus with 6 samples.

Results

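Citrate synthase, the isocitrate dehydrogenases, the oxoglutarate dehydrogenase and the malate dehydrogenases were followed in kidneys of 2 genotypes, wild type (3 mice) and homozygous mutant (3 mice). Genes were taken when the platform annotation gave a probe exactly 1 symbol, and the probe with the highest mean over the 6 arrays stood for the gene. Of the 9 genes sought, 8 were found this way (Cs, Idh1, Idh3a, Idh3b, Idh3g, Ogdh, Mdh1 and Mdh2), out of 18048 genes in the series with such a probe. Idh2, the mitochondrial NADP-dependent isocitrate dehydrogenase, shared its probe with another gene in the annotation, so no value is given for it. Each array carried polyA RNA of 1 animal, from a kidney piece frozen after saline perfusion. Which gene is mutated, and the animals' strain, age, sex and treatment, are not stated in the labels used here.

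In the citric acid cycle, citrate synthase (Cs) joins acetyl-CoA to oxaloacetate, and aconitase turns citrate into isocitrate. The NAD-dependent isocitrate dehydrogenase of mitochondria, built from the products of Idh3a, Idh3b and Idh3g, and then the oxoglutarate dehydrogenase complex, whose first subunit is encoded by Ogdh, release carbon dioxide. Mdh2 encodes the mitochondrial malate dehydrogenase that restores oxaloacetate. Idh1 and Mdh1 encode separate enzymes outside the mitochondrion. The Idh1 enzyme, in cytosol and peroxisomes, produces NADPH from isocitrate. The Mdh1 enzyme acts in the malate-aspartate shuttle, which carries reducing equivalents across the mitochondrial membrane. Proximal tubule cells are rich in mitochondria and depend on their oxidation.

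The windows before the starts of Idh1, Mdh1 and Mdh2 are shown because these genes carry the comparison of cytosolic with mitochondrial forms described further on. Each holds the 250 bases before a RefSeq start (GRCm38.p6), and capitals mark the letters CCAAT (the CCAAT box) or GGGCGG (the GC box) on either strand.
Idh1, chr1:65186480-65186729, minus strand: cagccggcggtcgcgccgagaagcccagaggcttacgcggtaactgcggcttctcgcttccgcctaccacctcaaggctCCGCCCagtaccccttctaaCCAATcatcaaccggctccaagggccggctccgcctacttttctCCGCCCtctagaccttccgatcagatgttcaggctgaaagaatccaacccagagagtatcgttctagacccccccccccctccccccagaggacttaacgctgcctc
Mdh1, chr11:21571935-21572184, minus strand: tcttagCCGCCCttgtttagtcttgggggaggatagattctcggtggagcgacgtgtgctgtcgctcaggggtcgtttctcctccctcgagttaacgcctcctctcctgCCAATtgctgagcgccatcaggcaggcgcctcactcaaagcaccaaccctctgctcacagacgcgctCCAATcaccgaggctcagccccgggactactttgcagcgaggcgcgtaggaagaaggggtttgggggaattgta
Mdh2, chr5:135778399-135778648, plus strand: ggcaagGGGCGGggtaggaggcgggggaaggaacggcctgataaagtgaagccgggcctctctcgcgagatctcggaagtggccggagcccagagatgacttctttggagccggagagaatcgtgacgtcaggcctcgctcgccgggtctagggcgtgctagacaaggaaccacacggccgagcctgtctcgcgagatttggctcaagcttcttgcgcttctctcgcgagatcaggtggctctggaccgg
Of the 8 genes, 7 were in the promoter table. A CCAAT box was present before a start of 5 of these 7 (Cs, Idh1, Idh3b, Mdh1 and Ogdh), against 33.8% of all 32851 windows of this length. A GC box, the other motif, was present for 5 of 7 (Cs, Idh1, Mdh1, Mdh2 and Ogdh), against 32.7%. The Idh1 and Mdh1 windows hold both, and the Mdh2 window holds a GC box alone. A second Idh1 start in the table, with its window at chr1:65179143-65179392, has 1 GC box and 0 matches to the other motif. Genes such as Ogdh have several starts in the table and so more windows in which a match can occur. These matches describe sequence only.

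A level is the log2 of a probe's intensity over its array's median, and a difference is the mutant mean minus the wild-type mean. Errors of levels are SDs over 3 arrays, and errors of differences are standard errors of the limma fit. The low-signal limit, set from the spread of the dimmest values, was 0.60 log2, and all 8 enzyme probes lay above it on every array. Per array, 37.5% to 41.7% of all values exceeded that limit. Markers of the labelled tissue were present, with 16 of 17 proximal tubule and 5 of 6 thick ascending limb genes above the limit in their mean. Replicate 1 of each genotype stood apart in sex-linked transcripts. The brighter probe of Xist, the RNA of the inactive X chromosome, read 2.21 in wild type and 3.00 in mutants there and at most -0.21 on the other arrays, while the Y-linked Eif2s3y was at the floor of -1.79 on both and between 3.01 and 3.46 elsewhere. By these transcripts, replicate 1 of each genotype read as female and the other arrays as male, though the labels give no sex. The second Xist probe and the Y-linked Uty lay below the low-signal limit on every array with a value. On wild-type replicate 1 all 8 enzymes had their lowest wild-type value. The upper quartile of that array was also the lowest, at 3.53 times its median. It was 3.93 and 3.84 on the other wild-type arrays and 4.09 to 4.14 on the mutant arrays. Scaling by the median thus left the upper quartile higher on every mutant array.

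All 8 enzymes had a lower mean in mutant than in wild-type kidney, and Idh1 alone fell past the threshold (limma with Benjamini-Hochberg adjustment over 25834 probes, adjusted p under 0.05). Idh1 stood at 46.3% of its wild-type level, whereas the other 7 means lay between 70.6% and 88.5% of theirs. Among 14817 genes tested, 1.59% passed as lower and 5.67% as higher in mutants, and the count of 1 lower and 0 higher among these 8 rests on a single gene. Before adjustment, 2 of 8 had a limma p under 0.05, Idh1 and Idh3g, both lower. A negative difference was found in 42.5% of all genes tested and in 38.4% of the 9550 with a mean above the low-signal limit. The median of the 8 enzymes was -0.25 log2, beside 0.10 for those 9550 genes and 0.08 for all. These 8 transcripts come from the same 6 RNA samples and are not independent.

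**Figure D1:**
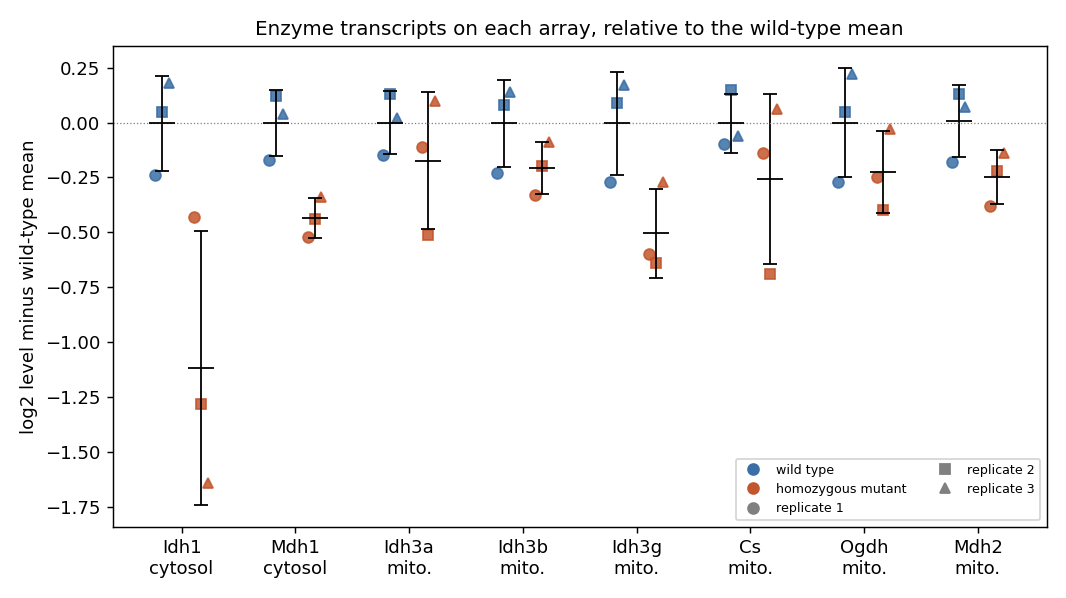
Log2 level of each enzyme transcript minus its wild-type mean (vertical axis), by gene and compartment (horizontal axis). Blue points are wild-type and orange points homozygous mutant arrays, symbols give the replicate, and bars show the mean and SD (n = 3). The mutant points of Idh1 and Mdh1 all lie below their wild-type points, and the mutant points of Idh1 are spread over the widest range.

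Among the isocitrate dehydrogenases, Idh1 measured 4.28, 4.57 and 4.70 log2 on wild-type replicates 1 to 3. On mutant replicates 1 to 3 it measured 4.09, 3.24 and 2.88. The genotypes did not overlap, although mutant replicate 1 lay only 0.19 below the lowest wild-type array, and the mutant SD of 0.62 was larger than the wild-type SD of 0.22. The difference was -1.11 ± 0.24 log2 (95% interval -1.63 to -0.59), or 2.16-fold lower (limma, adjusted p = 0.0145). Of the 9550 genes above the low-signal limit, 0.607% had a difference as negative as that of Idh1 or more so. When replicate 2 or 3 of either genotype was left out, the limma adjusted p rose to between 0.0552 and 0.0782, and to 0.224 with no intensity trend in the variance. With replicate 1 of both genotypes left out, the Idh1 difference was -1.58 (limma, adjusted p = 5.1e-04). The part of the sex-linked pattern of replicate 1 in these values was not tested.

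The NAD-dependent enzyme of mitochondria showed smaller differences. Idh3g, which encodes a regulatory subunit, read 5.64, 6.00 and 6.08 log2 in wild type and 5.31, 5.27 and 5.64 in mutants. Mutant replicate 3 and wild-type replicate 1 met at the same level, so the groups overlapped. Its difference of -0.50 ± 0.16 (95% interval -0.85 to -0.16) missed the threshold (limma, adjusted p = 0.0989), and its call changed with the setting. The limma adjusted p was under 0.05 without wild-type replicate 1 (0.032), after cyclic loess scaling (0.0435) and with array weights (0.0261). It was 0.374 with no intensity trend, and it lay between 0.202 and 0.329 when any single array other than wild-type replicate 1 and mutant replicate 3 was dropped.

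Idh3a, the catalytic subunit, read 2.83, 3.11 and 3.00 in wild type and 2.87, 2.47 and 3.08 in mutants. Only mutant replicate 2 lay below the wild-type range. The difference was -0.18 ± 0.18 (95% interval -0.57 to 0.22; limma, adjusted p = 0.704), and it was -0.01 without mutant replicate 2. Dropping wild-type replicate 2 gave -0.11, and dropping mutant replicate 3 gave -0.31. Quantile scaling gave -0.32, and cyclic loess -0.31. Idh3b, the other regulatory subunit, read 6.51, 6.82 and 6.88 in wild type and 6.41, 6.54 and 6.65 in mutants. Only mutant replicate 1 was below the wild-type range, and the difference was -0.20 ± 0.16 (95% interval -0.54 to 0.13). Leaving out wild-type replicate 1 gave -0.32, whereas leaving out replicate 3 of that genotype gave -0.13. The 3 subunit transcripts of 1 enzyme thus differed between genotypes by -0.50, -0.20 and -0.18, and only the interval of Idh3g, which is not adjusted for the number of genes, excluded 0.

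The malate dehydrogenases had high signals on every array. Mdh1, the cytosolic form, read 8.65, 8.94 and 8.86 log2 in wild type and 8.30, 8.38 and 8.48 in mutants. All 3 mutants lay below all 3 wild-type arrays, by at least 0.17. The difference of -0.43 ± 0.21 (95% interval -0.89 to 0.02) did not pass (limma, adjusted p = 0.324). Mdh2, the mitochondrial form, read 7.22, 7.53 and 7.47 in wild type and 7.02, 7.18 and 7.26 in mutants, and mutant replicate 3 was above the lowest wild-type array. Its difference was -0.25 ± 0.17 (95% interval -0.61 to 0.11). Groups without overlap and lower in mutants were found in 2 of the 8 enzymes (Idh1 and Mdh1), against 10.2% of the 9083 genes with a mean above the low-signal limit and a value on all 6 arrays.

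Cs and Ogdh, at the entry and at the oxoglutarate step of the cycle, also did not pass (limma, adjusted p = 0.652 and 0.529). Cs read 2.09, 2.34 and 2.13 in wild type and 2.05, 1.50 and 2.25 in mutants, with mutant replicate 2 apart from the other 5 arrays. The Cs difference was -0.25 ± 0.23 (95% interval -0.74 to 0.24), and -0.03 without mutant replicate 2 but -0.41 without mutant replicate 3. Quantile scaling gave -0.38 and cyclic loess -0.41. A second Cs probe lay below the low-signal limit on all of the arrays with a value and was not tested. It had no value on wild-type replicate 2, and its mean was -1.66 ± 0.18 in wild type and -1.17 ± 1.07 in mutants. The mean of all Cs probes gave -0.55, but on wild-type replicate 2 that mean held the brighter probe alone. This value is therefore not a second measure of a Cs decrease. Ogdh read 4.87, 5.19 and 5.36 in wild type and 4.89, 4.74 and 5.11 in mutants, with 2 of 3 mutant arrays inside the wild-type range. Its difference was -0.23 ± 0.16 (95% interval -0.56 to 0.11). Leaving out wild-type replicate 1 moved it to -0.36, and leaving out replicate 3 of that genotype to -0.12. With mutant replicate 2 dropped it was -0.14. The intervals of Cs, Ogdh, Mdh2, Idh3a and Idh3b allow decreases of 0.54 to 0.74 log2 as well as no change.

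**Figure D2:**
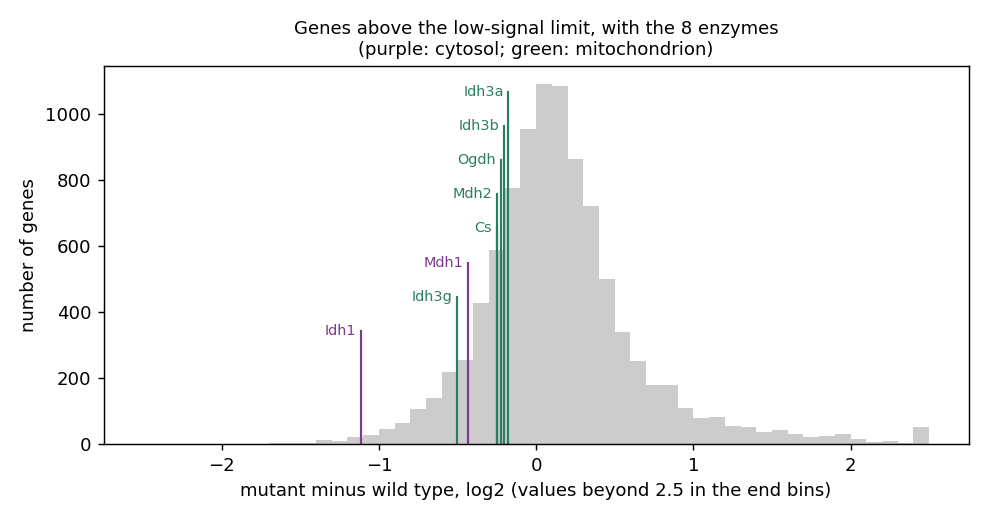
Number of genes (vertical axis) by the difference between genotypes in log2 (horizontal axis), for the 9550 genes with a mean above the low-signal limit. Vertical lines mark the 8 enzymes at arbitrary heights, purple for cytosolic and green for mitochondrial forms; all 8 lie below 0, with Idh1 at -1.11 and the others between -0.50 and -0.18.

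Cytosolic and mitochondrial forms were then set against each other within each array, which removes the signal strength of each probe and any scaling shared by both. With the wild-type mean of Mdh1 minus Mdh2 set to 0, the wild-type arrays read 0.02, 0.00 and -0.02 log2 and the mutants -0.14, -0.21 and -0.20. Mdh1 was therefore lower relative to Mdh2 on every mutant array, by 0.18 on average, with SDs of 0.02 and 0.04. An exact two-sided permutation test over the arrays gave p = 0.1, the smallest that 3 against 3 arrays can give, and 0.133 after adjustment over 4 pairs. The mean stayed between -0.21 and -0.12 with the other scalings and floors and with arrays left out.

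For Idh1, the comparison with Idh2 could not be made, so the subunits of the mitochondrial NAD enzyme were used. The choice was made after the values had been seen. Relative to Idh3a, Idh1 read -0.09, -0.07 and 0.16 in wild type and -0.31, -0.77 and -1.73 in mutants. Relative to Idh3b, it read -0.01, -0.03 and 0.04 in wild type and -0.10, -1.08 and -1.54 in mutants. All mutants were lower in both pairs, by 0.94 and 0.91 on average (exact two-sided permutation test, p = 0.1 each, adjusted 0.133). Without mutant replicate 3 these means were -0.54 and -0.59. Relative to Idh3g the groups overlapped, since mutant replicate 1 read 0.17, above all wild-type arrays, and replicates 2 and 3 read -0.63 and -1.36 (exact two-sided permutation test, p = 0.4). That mean was -0.61, and -0.23 without mutant replicate 3. With replicates 2 and 3 of each genotype alone it was -0.98. Mutant replicate 1 thus showed little separation of Idh1 from the NAD enzyme, and replicates 2 and 3 a wide one.

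**Figure D3:**
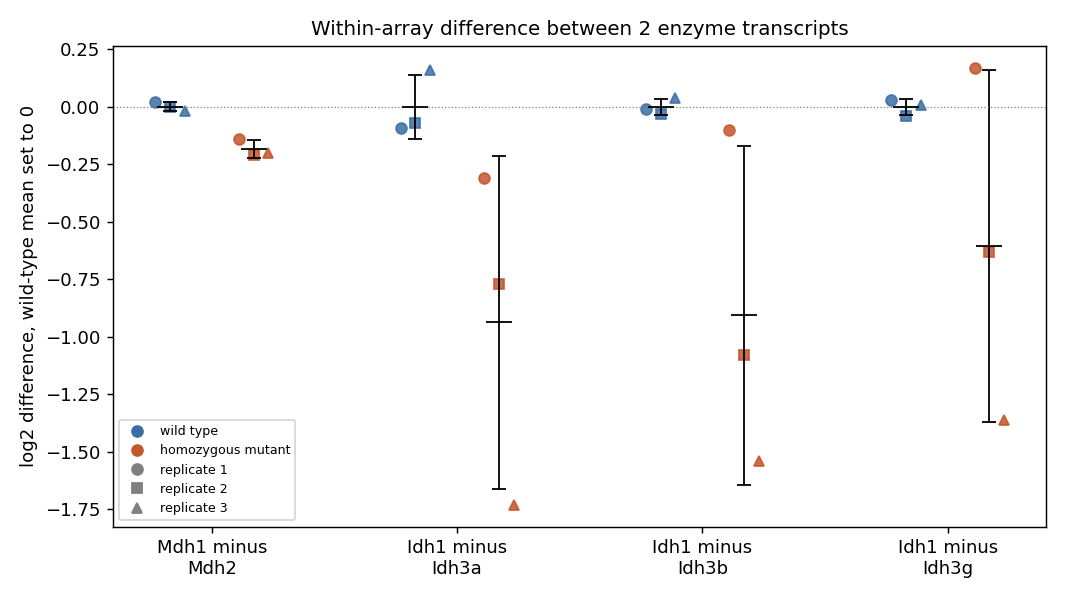
Within-array log2 difference between 2 transcripts with the wild-type mean set to 0 (vertical axis), for 4 pairs (horizontal axis). Blue points are wild-type and orange points mutant arrays, symbols give the replicate, and bars show the mean and SD (n = 3). The Mdh1 minus Mdh2 points form 2 tight groups, while the mutant points of the Idh1 pairs are scattered.

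The median difference was -0.77 log2 over the 2 cytosolic genes and -0.24 over the 6 mitochondrial genes, which is a description without a test. The Mdh1 difference of -0.43 lies within the mitochondrial range of -0.50 to -0.18, so the gap between the medians rests on Idh1. The mean of the cytosolic genes relative to wild type was -0.47, -0.86 and -0.99 on mutant replicates 1 to 3. That of the mitochondrial genes was -0.30, -0.44 and -0.06, so the compartments were furthest apart on mutant replicate 3. On the wild-type arrays they moved together, at -0.20, 0.09 and 0.11 for cytosolic and -0.20, 0.11 and 0.09 for mitochondrial genes.

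The other enzymes of the cycle also had lower means in mutants, all 11 tested of 13 listed, against 42.5% of all genes tested. Their median was -0.46 log2. Of these, 2 fell and 0 rose (limma, adjusted p under 0.05), against 1.59% and 5.67% of all genes tested. Sdha, the flavoprotein subunit of succinate dehydrogenase, read 8.24, 7.87 and 7.75 log2 in wild type and 7.15, 7.09 and 7.28 in mutants. Sdhc, a membrane anchor subunit of the same enzyme, read 5.39, 5.68 and 5.57 in wild type and 4.95 to 5.07 in mutants. In 8 of the 11 genes the groups did not overlap, with mutants lower, against 2 of the 8 enzymes above and 10.2% of the 9083 genes described there. The difference between the lists was not tested. Aco1, the cytosolic aconitase and iron regulatory protein, differed by -0.52 ± 0.16 (limma, adjusted p = 0.0984). Fh1, the fumarase that supplies malate, differed by -0.48 ± 0.14 (limma, adjusted p = 0.0637). With 1 array left out, 0 of the 11 passed without any one of the mutant replicates and 1 without wild-type replicate 2 or 3.

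**Figure D4:**
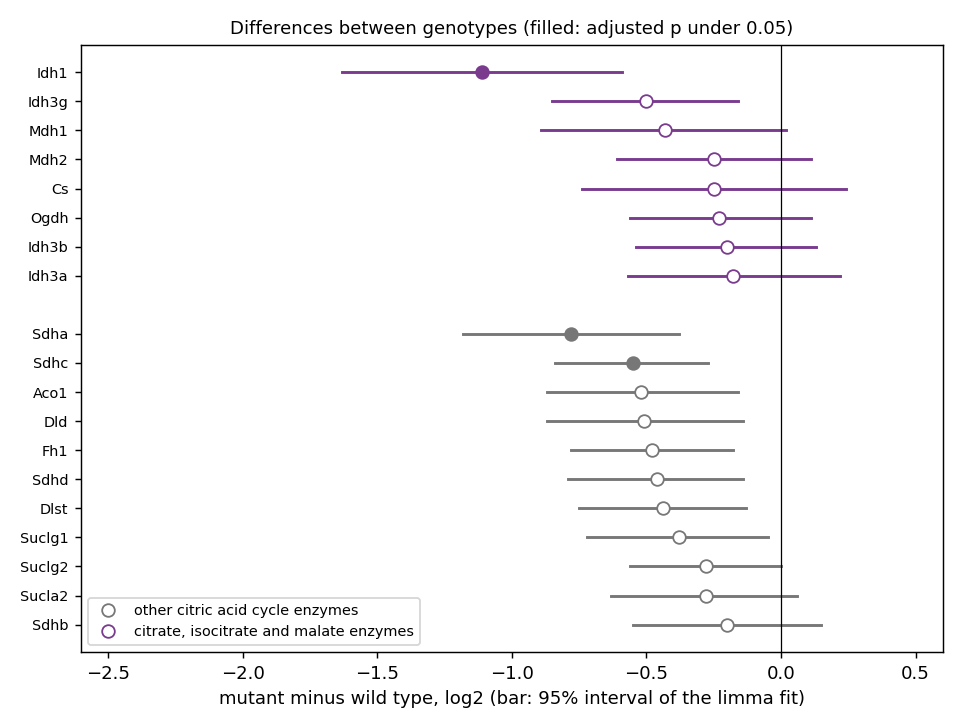
Difference between genotypes in log2 (horizontal axis) with its 95% interval for the 8 enzymes (purple) and 11 other citric acid cycle enzymes (grey). Filled points, Idh1, Sdha and Sdhc, passed an adjusted p of 0.05, and all 19 points lie below 0.

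Genes that make or use citrate, malate and pyruvate around the cycle were more mixed. Of 17 tested of 18 listed, 1 fell and 0 rose, 12 had a negative difference, and the median was -0.29. Over all genes tested, 1.59% fell, 5.67% rose and 42.5% had a negative difference. The one was Me1, the cytosolic malic enzyme, which turns malate into pyruvate and yields NADPH. Me1 read 4.16, 4.98 and 4.74 log2 in wild type and 3.91, 3.83 and 3.98 in mutants, a difference of -0.72 ± 0.18 (limma, adjusted p = 0.0333). Its limma adjusted p lay between 0.078 and 0.135 when any array other than wild-type replicate 1 was left out. With all arrays kept, it was 0.0556 with no floor, 0.0536 with the mean of all probes of a gene and 0.281 with no intensity trend. Pcx, the pyruvate carboxylase that feeds oxaloacetate into the cycle, differed by -1.22 ± 0.36 (limma, adjusted p = 0.0745), with wild-type arrays from 4.70 to 6.57. Without wild-type replicate 2, the highest of them, the difference was -0.68 (limma, adjusted p = 0.174). The limma adjusted p was under 0.05 after quantile normalization (0.0422) or cyclic loess (0.0498), with no filter on dim probes (0.0359), with array weights (0.0417) and without wild-type replicate 1 (0.0199). It was 0.396 with a robust variance, 0.369 with no intensity trend, 0.263 without mutant replicate 1 and 0.13 with no floor. In 13 of 20 alternatives Pcx did not pass. Pdhb, a subunit of pyruvate dehydrogenase, differed by -0.33 ± 0.13 (limma, adjusted p = 0.186), and by -0.19 as the mean of all its probes.

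Genes listed for NADPH supply went in both directions. Me1, Mthfd1 and Aldh1l1 had negative differences, and Pgls and H6pd positive ones. Their summed level ran from 113 to 152 array medians in wild type and from 118 to 155 in mutants. Idh1, which also makes NADPH in the cytosol, is not in this list. Of 5 genes tested of 7 listed, 1 fell and 0 rose, and 3 had a negative difference, beside the same shares over all genes. The gene that fell was again Me1, already counted in the list before. G6pdx and Pgd were not tested. Mthfd1, a folate enzyme named here after its values were seen, read 1.55, 2.05 and 2.03 log2 in wild type and 1.47, 0.47 and 1.42 in mutants, without overlap. Its difference of -0.76 ± 0.30 did not pass (limma, adjusted p = 0.209) and was -0.44 without mutant replicate 2, the array on which it lay below the low-signal limit. Aldh1l1, another folate enzyme, differed by -0.29 ± 0.19 (limma, adjusted p = 0.5). Pgls, the lactonase of the pentose phosphate pathway, read 3.50, 3.98 and 3.76 log2 in wild type and 4.15, 4.45 and 4.10 in mutants, without overlap. H6pd, which acts in the endoplasmic reticulum, read 4.68, 5.23 and 5.06 in wild type and 5.50, 5.67 and 5.27 in mutants. Their differences of 0.48 ± 0.16 and 0.49 ± 0.16 did not pass (limma, adjusted p = 0.112 and 0.116).

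Markers of some cell types moved alongside these values. Of 17 proximal tubule markers tested of 18 listed, 9 fell and 0 rose, against 1.59% and 5.67% of all genes tested. Their median difference was -0.72 log2. Their summed level ran from 1614 to 1902 array medians in wild type and from 961 to 1033 in mutants. Slc5a2 was the one marker of that list below the low-signal limit in its mean. In bulk RNA, fewer cells of a type and less RNA per cell cannot be told apart. Of 6 macrophage markers tested of 8 listed, 5 rose, with summed levels of 25.2 to 31.6 in wild type and 117 to 162 in mutants. The exception, Adgre1, was below the limit in its mean and had a negative difference of -0.82 ± 0.64 (limma, adjusted p = 0.589). Cd68 and Csf1r were not tested. All 6 fibroblast and pericyte markers rose, from a sum of 101 to 120.3 in wild type to 363 to 379 in mutants. The brightest probes weigh most in such sums. In this list that was Col3a1, with means of 5.83 log2 in wild type and 7.82 in mutants. Among the proximal tubule markers it was Miox, with 9.41 and 8.42. Thick ascending limb and distal convoluted and connecting tubule markers each had 1 lower and 0 higher, with medians of -0.10 and -0.01. Principal cell, intercalated cell, podocyte and endothelium markers had 0 lower and 0 higher. Their medians were 0.13, 0.00, -0.03 and 0.37. The part of the marker shifts in the enzyme differences was not tested. The sum of the 8 enzymes ran from 752 to 926 in wild type and from 627 to 715 in mutants. Mdh1 alone, which did not pass, gave 402 to 490.5 of it in wild type and 314 to 356 in mutants. Idh1 gave 19.4 to 26 and 7.38 to 17.

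Over the 6 arrays, the transcripts most like Idh1 by Pearson correlation among 9082 genes above the low-signal limit were Hsdl2 (0.989), Mtfr1l (0.988), Vwa7 (0.987), Gatm (0.985) and Tk2 (0.985). The 6 points include the genotype contrast, and the correlations are a description. Gatm, the first enzyme of creatine synthesis and a proximal tubule marker, read 5.43, 6.02 and 5.92 log2 in wild type and 5.06, 4.06 and 3.94 in mutants. Mutant replicate 1 was the mutant nearest to wild type for Gatm and for Idh1. This is no separate observation, since Gatm was picked for its likeness to Idh1 over these arrays. Gatm differed by -1.44 ± 0.25 (limma, adjusted p = 0.00327, and 0.15 with no intensity trend). Hsdl2, Mtfr1l, Vwa7 and Tk2 differed by -0.54, -0.48, -0.44 and -0.51 and did not pass. The other enzymes resembled Idh1 less, from 0.34 for Idh3a to 0.69 for Mdh1.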

How the data were processed

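Kidney polyA RNA of 6 mice, 3 per genotype and each a different animal per the series text, was hybridised to single-colour CodeLink arrays per the labels' protocols. The deposited values are intensities on a linear scale. Their array medians of 0.994 to 0.997 and the presence of negative values show that they had been background-subtracted and scaled by the authors. The software they used is not named in the labels.

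Each array was divided by its median, values of 0 or less became missing, those under the 10th percentile (0.29) were raised to it, and log2 was taken. Probes with values on at least 2 arrays per genotype were kept, and the lowest 25% by mean were left out. The genotype difference was fitted in limma 3.58.1 under R 4.3.3 (lmFit, eBayes with an intensity trend, two-sided), with p-values adjusted by Benjamini-Hochberg over 25834 probes. The platform annotation, which can be old, listed 21590 probes with 1 symbol, 681 with several and 12666 with none. All 8 enzymes matched a RefSeq symbol. The low-signal limit of 1.52 array medians was set with the values in view, as the mode of all values (0.525) plus 3 times the spread below it (0.33).

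Enzyme pairs were compared by exact permutation over arrays. On simulated arrays the fit recovered 1 of 50 bright probes lowered by 0.5 log2, 21 of 50 lowered by 1 and 48 of 50 lowered by 2. Only 50 probes per size were changed among 25834, so an adjusted p under 0.05 was harder to reach there than in the data. Precision is limited by the number of arrays.

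The enzymes, gene lists and tests were chosen with earlier results of these data known. Named genes were the enzymes, members of each list past the threshold with the 2 others of smallest p, and the 5 genes most like Idh1. Mthfd1 and Aldh1l1 were named outside this rule. The planned comparison of Idh1 with Idh2, and the genes most like Idh2, could not be given because Idh2 had no probe of its own. Alternatives covered scaling, the floor, filters, the variance model, a replicate block, the threshold, the mean of all probes of a gene, and arrays left out.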

Additional observations from a re-analysis of the deposited data

How the results depend on the processing

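Each of the 8 enzyme differences stayed negative with the other scalings and floors, array weights, the mean of all probes and arrays left out, and their median stayed between -0.37 and -0.19. The other variance models, the block, the threshold and the dim-probe filters leave a difference as it is. Enzymes lower in mutants, 1 in the report, numbered 2 with cyclic loess, with array weights and at an adjusted p of 0.10, 0 with no intensity trend, and 0 to 2 with single arrays left out. Where 2 passed, the second was Idh3g. Over all genes, 235 were lower in the report, 390 with cyclic loess, 403 after quantile normalization, 353 with array weights, 369 at an adjusted p of 0.10 and 6 with no intensity trend. Other citric acid cycle enzymes lower, 2 in the report, numbered 4 after quantile normalization and at an adjusted p of 0.10, 6 with cyclic loess or array weights, 0 with no intensity trend, 1 with only replicates 2 and 3, and 0 to 2 with single arrays left out. The cause was not tested. Enzymes higher in mutants numbered 0 in every alternative.

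The labels do not say that a number pairs animals, and deviations of same-numbered arrays correlated at 0.072, 0.02 and 0.07, although each array correlated best with its own number and replicate 1 of both genotypes shares the sex-linked pattern. With a replicate block, 2 enzymes, 4 other cycle enzymes and 363 of all genes passed as lower. Of the genes named in the report, those gaining a call were Idh3g (limma, adjusted p = 0.035), Aco1 (0.0299), Fh1 (0.0302) and Pcx (0.00146), and, higher in mutants, Pgls (0.037) and H6pd (0.0463). The pairing left 0.25 as the p of Mdh1 minus Mdh2, whose exact test over 3 pairs can give no less. The planned comparison of Idh1 with Idh2 was not run. Idh1 minus Idh3g stayed negative with the other scalings and with arrays left out. All enzyme signals were above the low-signal limit. Simulated decreases of 0.5 log2, larger than most of these differences, were recovered for 1 of 50 probes with 3 arrays per genotype. Smaller decreases were not simulated.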
